A study of Homo sapiens with 10 samples.

Results

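The LINC complex and torsin genes of the nuclear envelope were followed between 2 states of IMR90, a normal human fibroblast line from fetal lung. The 10 genes were SUN1, SUN2, SYNE1, SYNE2, SYNE3, TOR1A, TOR1B, TOR1AIP1, TOR1AIP2 and NRM, of 19775 genes named on the array. Every probe set, a group of short probes read out as a single value, whose platform annotation gives exactly 1 symbol from this list was taken, which gave 34 of 54675 probe sets. Total RNA was hybridised to 5 arrays of proliferating cells at 28 population doublings and to 5 arrays of senescent cells at 90 population doublings. Both groups were grown at 3% oxygen and 10% serum, and the senescent cells had been passaged until growth ceased and then kept in dishes for 2 weeks. Neither group carries a transgene or a knockdown per the labels, although the series title names lamin B1 depletion, so growth state and passage number differ together. Nothing in the labels tells whether the 5 arrays of a group were separate cultures, and the p-values therefore describe the spread between these arrays, which may be technical. In RNA from whole cultures, fewer cells expressing a gene and less RNA per cell cannot be told apart.

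The LINC complex couples the nucleus to the cytoskeleton across both nuclear membranes. SUN proteins sit in the inner membrane, touch the lamina on the nuclear side, and hold the KASH peptide at the tail of a nesprin in the space between the membranes, while the nesprin reaches into the cytoplasm to actin, to microtubule motors or to plectin. Torsins are ATPases in the lumen of the endoplasmic reticulum and nuclear envelope that act only with a membrane-bound activator, LAP1 (TOR1AIP1) or LULL1 (TOR1AIP2). Nurim (NRM) is a multi-pass protein of the inner nuclear membrane.

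The median log2 value of an array was 3.05 to 3.12, and with 5 arrays a group their number limits the precision. Pairs of arrays correlated at 0.992 to 0.997 within a group and at 0.940 to 0.947 across groups, over probe sets, which are no replicates. All 10 fibroblast markers lay above the array's 60th percentile (4.64 to 4.77) on every array, and the log2 of their summed level was 16.8 to 17.1 in proliferating and 16.8 to 16.9 in senescent cells. All 5 leukocyte markers measured, including PTPRC, lay below that percentile on every array, as did 4 of 8 epithelial markers (CDH1, KRT5, KRT8 and SCGB1A1), 5 of 6 endothelial markers (all but TEK) and 4 of 7 muscle markers (DES, MYOD1, MYOG and MYH3). The log2 of the summed level went from 10.2 to 10.5 in proliferating to 9.85 to 10.0 in senescent cells for epithelial markers, from 9.64 to 10.0 to 10.5 to 10.7 for endothelial markers and from 12.5 to 13.0 to 13.3 to 13.4 for muscle markers, and was 4.79 to 4.90 for leukocyte markers over all 10 arrays. The highest genes weigh most in these sums. Of the 10 fibroblast markers 3 rose and 4 fell by the limma test described below, from LUM at 1.49 to FAP at -1.69 (log2). Among epithelial genes the senescent minus proliferating difference was -2.31 for EPCAM, -1.26 for KRT19, -0.46 for KRT18 and 0.34 for SFTPC. The endothelial gene TEK was 0.62 higher in senescent cells on the log2 scale. Among muscle genes ACTG2 was 0.53 higher and CNN1 0.15 higher, while MYH11 was 0.72 lower. The part of these shifts in the results below was not tested. A control for RNA integrity, the signal at the 3' minus the 5' end of ACTB, also differed: it was 2.07 ± 0.14 on proliferating arrays and 2.32 ± 0.10 on senescent arrays (SD; n = 5 per group; p = 0.00794 by exact permutation). For GAPDH the same control was -0.03 ± 0.18 and 0.12 ± 0.09 (SD; n = 5 per group; p = 0.135 by exact permutation). Because the ACTB control went with the groups, a fit with it as a covariate cannot separate RNA integrity from growth state. A call lost in that fit may also reflect lower precision.

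Genes of both directions were found among the 10. Of the 34 probe sets, 31 passed the filter on low values, which required a value above the array's 40th percentile on at least 5 arrays. Of these 31, 15 rose and 8 fell in senescent cells by limma's test at a Benjamini-Hochberg adjusted threshold of 0.05 over all 32732 probe sets tested. The calls thus covered 74.2% of the tested member probe sets, against 53.0% of all probe sets (26.9% higher and 26.2% lower). Both SUN genes, SYNE2 and NRM had called probe sets that all fell, and SYNE1, TOR1A, TOR1B, TOR1AIP1 and TOR1AIP2 had called probe sets that all rose. SYNE3 had no tested probe set. The groups did not overlap on 22 of the 31 (16 higher and 6 lower), against 44.5% of all probe sets (23.2% higher and 21.3% lower). Differences of at least 2-fold were called for 3 member probe sets that rose and 4 that fell, against 9.04% and 8.80% of all probe sets. The median difference over the 31 tested was 0.20 on the log2 scale, and it was 0.03 over all probe sets tested. Of the 34 probe sets, 9 lay below the array's 60th percentile on all 10 arrays, and the size of any difference there depends on the background correction.

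**Figure D1:**
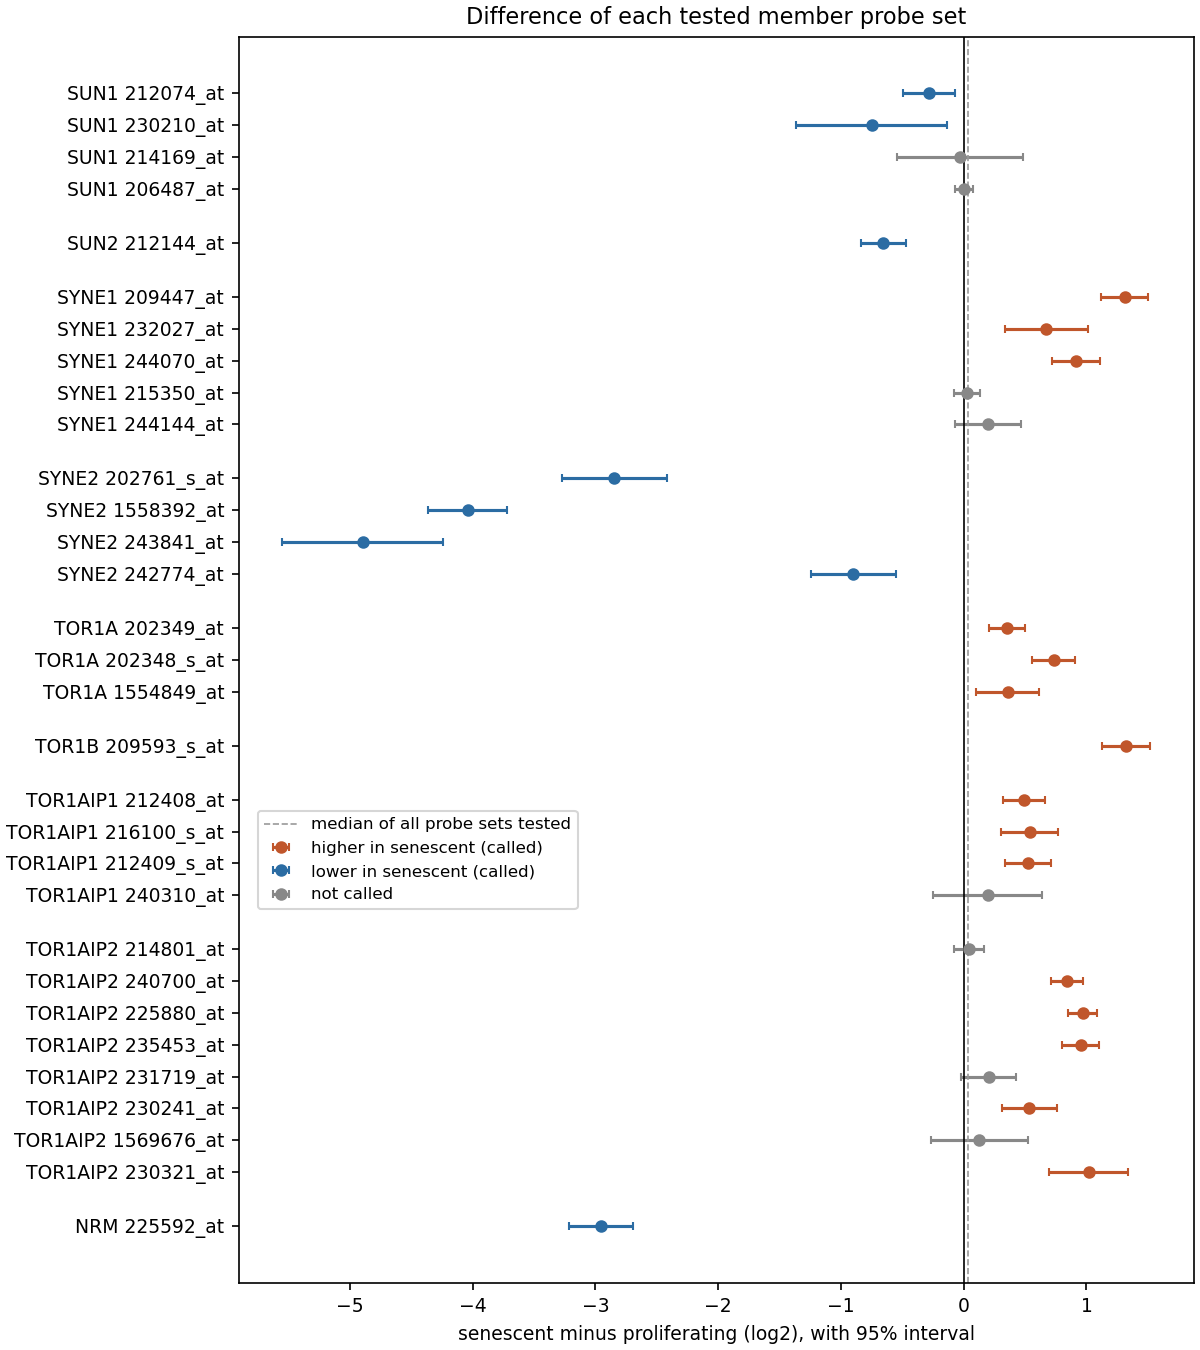
Difference of each of the 31 tested member probe sets (horizontal axis, senescent minus proliferating, log2; bars, 95% interval of the limma fit; n = 5 arrays per group), with the median of all probe sets tested as a dashed line. The SYNE2 probe sets reach from -0.90 to -4.90 and NRM stands at -2.96, while the called SYNE1, torsin and torsin activator probe sets lie between 0.35 and 1.32.

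SUN2, an inner membrane protein that binds lamins and nesprins, was measured by 1 probe set (212144_at). Its log2 values were 9.95, 10.32, 9.90, 9.92 and 9.93 on the proliferating arrays and 9.34, 9.44, 9.27, 9.34 and 9.37 on the senescent arrays. Every senescent array lay below every proliferating array, and proliferating array 2 was the highest. SUN2 fell by 0.65 on the log2 scale (SE 0.08, limma's adjusted p = 7.1e-05), which is 1.57-fold lower. With the ACTB control as a covariate in the fit, the difference was -0.43 (adjusted p = 0.0031).

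SUN1, the paralogue of SUN2 with the same role, had 2 probe sets with clear signal. On 212074_at the proliferating values were 12.07, 11.98, 12.11, 12.14 and 11.66, and the senescent values were 11.76, 11.66, 11.86, 11.68 and 11.59. The groups overlapped because proliferating array 5 lay within the senescent range. The fall of 0.28 (SE 0.09, limma's adjusted p = 0.028) was lost without proliferating array 1, 3 or 4 or senescent array 2, 4 or 5, each left out alone (differences of -0.28 to -0.25, adjusted p of 0.056 to 0.066). It also missed the threshold when arrays were aligned on housekeeping genes (-0.31, adjusted p = 0.051). Of the 27 such genes tested, however, 5 rose and 12 fell themselves. With the ACTB covariate the SUN1 difference on 212074_at was -0.43 (adjusted p = 0.029). On 230210_at the values were 7.29, 7.65, 6.72, 7.44 and 6.42 in proliferating and 5.78, 6.38, 6.10, 6.92 and 6.59 in senescent cells. These groups overlapped as well, and the fall of 0.75 (SE 0.27, limma's adjusted p = 0.043) was lost without any of 7 arrays (proliferating 1, 2 or 4, senescent 1, 2, 3 or 5; differences of -0.81 to -0.60, adjusted p of 0.053 to 0.096), and stood at -0.18 with the ACTB covariate (adjusted p = 0.73). The other SUN1 probe sets, 214169_at and 206487_at, lay below the 60th percentile on all arrays, with values of 2.73 to 3.83 and 3.10 to 3.19, and their differences were -0.03 (95% interval -0.55 to 0.48) and 0.00 (-0.07 to 0.08).

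The order of the falls of SUN1 and SUN2 depended on the SUN1 probe set and on the fit. The per-array difference between their highest-mean probe sets, SUN1 minus SUN2, was 0.37 larger in senescent cells (exact permutation p = 0.00794, adjusted p = 0.00794 over the 4 related pairs tested). That p is the smallest that 5 arrays against 5 can give. The value ranged from 0.29 to 0.43 when each array was left out in turn. With the ACTB covariate, however, both probe sets fell by 0.43, and the other SUN1 probe set with clear signal, 230210_at, fell by 0.75 without it, against 0.65 for SUN2.

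SYNE2 encodes nesprin-2, a very large spectrin-repeat protein that binds actin and recruits microtubule motors to the nuclear surface. Its falls on 1558392_at and 243841_at were the largest differences among the 10 genes, though measured against low senescent values, while on 202761_s_at it fell by 2.85 and NRM fell by 2.96. On 202761_s_at, the probe set with its highest mean, proliferating values were 7.39, 7.75, 7.79, 7.64 and 7.76 and senescent values were 5.47, 4.88, 4.57, 4.30 and 4.88. On 1558392_at they were 7.75, 7.74, 7.66, 7.59 and 7.59 against 3.39, 3.46, 3.51, 4.22 and 3.55. On 243841_at they were 7.62, 8.19, 7.36, 7.84 and 7.71 against 2.31, 3.62, 3.43, 2.17 and 2.71. No senescent value reached the proliferating range on any of these probe sets.

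SYNE2 fell by 2.85 (SE 0.19), 4.04 (SE 0.14) and 4.90 (SE 0.29) on these 3 probe sets, or 7.19-fold, 16.5-fold and 29.8-fold, with limma's adjusted p of 6.6e-07, 7.3e-09 and 3.0e-07. The last 2 folds set a clear signal against senescent values that lay below the 60th percentile on every array, so their size depends on the background correction. On 202761_s_at the senescent values (4.30 to 5.47) lay around that percentile (4.64 to 4.77), so its fold is limited in the same way. The SYNE2 probe set 242774_at was low in both groups (3.17 to 4.06 and 2.74 to 2.85) and fell by 0.90 (SE 0.16, limma's adjusted p = 0.00067). The last, 240777_at, did not pass the filter, with values of 2.42 to 2.55 and 2.43 to 2.48. Each SYNE2 probe set other than 202761_s_at lay below the 60th percentile on every array of at least 1 group, and 202761_s_at lay around it in senescent cells. The sizes of the SYNE2 falls are therefore not compared.

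SYNE1 encodes nesprin-1, the closest relative of nesprin-2 and like it an actin-binding outer membrane protein, and it went the opposite way. On 209447_at the proliferating values were 8.63, 8.88, 8.62, 8.80 and 8.57 and the senescent values were 10.12, 9.99, 10.17, 10.02 and 9.79. On 244070_at they were 4.71, 4.81, 4.56, 4.40 and 4.56 against 5.69, 5.46, 5.41, 5.64 and 5.41. On 232027_at they were 6.30, 5.73, 6.40, 6.44 and 6.19 against 7.05, 7.10, 6.58, 6.95 and 6.74. All senescent arrays were above all proliferating arrays on each of them.

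SYNE1 rose by 1.31 (SE 0.09, limma's adjusted p = 5.5e-07), 0.91 (SE 0.09, adjusted p = 9.5e-06) and 0.67 (SE 0.15, adjusted p = 0.0033) on these probe sets. The last of these was 0.47 with the ACTB covariate, where its call was lost (adjusted p = 0.13). The remaining probe sets, 215350_at and 244144_at, lay below the 60th percentile on all arrays (2.89 to 3.11 and 2.68 to 3.41) and were not called, with differences of 0.03 (95% interval -0.08 to 0.14) and 0.20 (-0.07 to 0.47). Compared with 209447_at, the change was smaller by 0.40 on 244070_at (exact permutation, adjusted p = 0.044 over 22 pairs of probe sets of the same gene). It was smaller by 0.64 on 232027_at, which did not pass (adjusted p = 0.062). On 244070_at the proliferating values (4.40 to 4.81) lay around the arrays' 60th percentile (4.64 to 4.77), so the size of its change depends on the background correction.

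The opposite change of both nesprins was the widest gap among the 4 related pairs tested. The per-array difference SYNE1 minus SYNE2 was 4.16 larger in senescent cells between their highest-mean probe sets (SD of the per-array difference 0.20 in proliferating and 0.45 in senescent cells, n = 5 each; exact permutation p = 0.00794, adjusted p = 0.00794). It was 3.80 with the mean of each gene's tested probe sets, which include ones near background, and 4.03 to 4.30 when single arrays were left out.

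**Figure D2:**
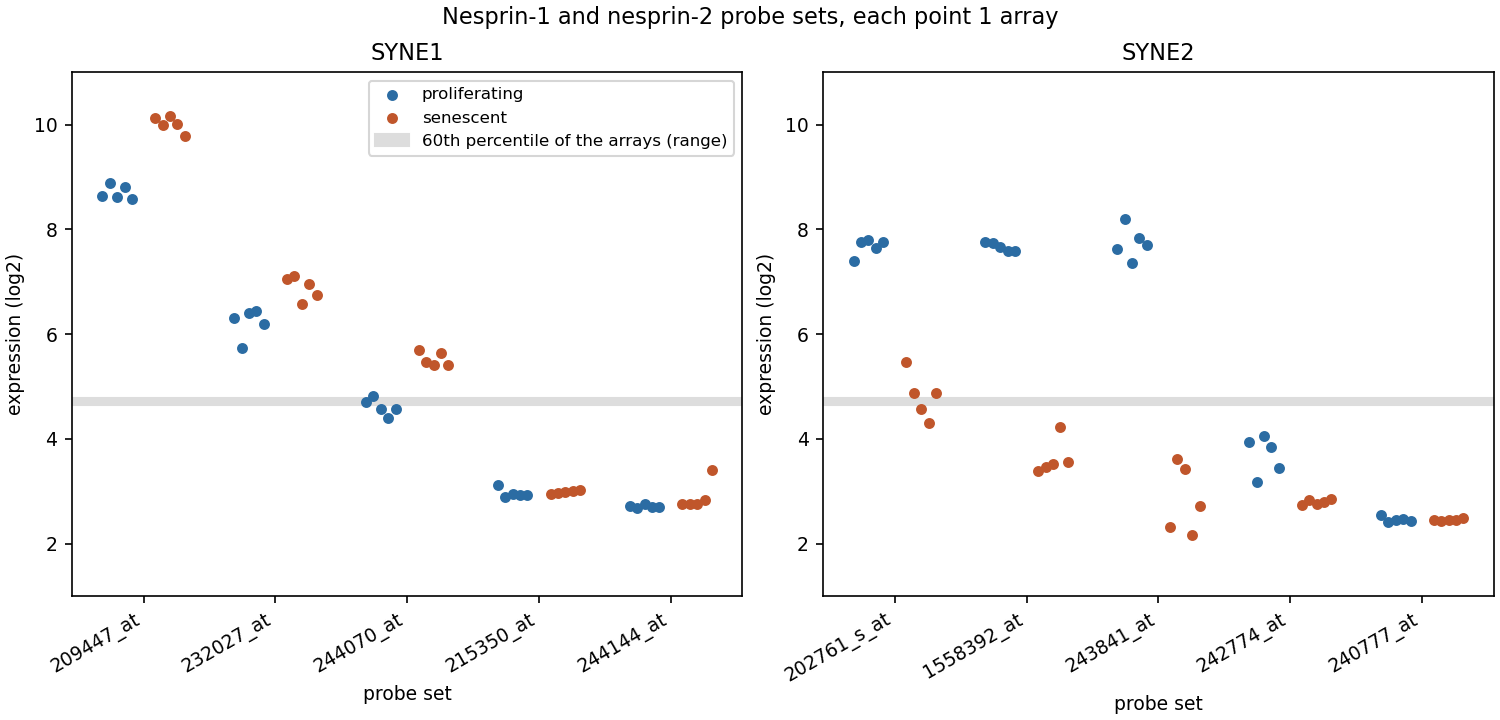
Expression (log2, vertical axis) of each SYNE1 and SYNE2 probe set (horizontal axis) on the 5 proliferating arrays (blue) and 5 senescent arrays (orange), with the range of the arrays' 60th percentile in grey. Senescent points lie above proliferating points on the 3 SYNE1 probe sets called, and below them by 2.85 to 4.90 on 3 SYNE2 probe sets.

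SYNE3 encodes nesprin-3, which links the nucleus to intermediate filaments through plectin. Its only probe set annotated with a single symbol, 1553644_at, did not pass the filter, with values of 2.35, 2.33, 2.46, 2.31 and 2.34 in proliferating and 2.33, 2.66, 2.37, 2.37 and 2.34 in senescent cells. A further probe set, 219563_at, is annotated with both SYNE3 and LINC00341, a name that the RefSeq gene table lists as a synonym of SYNE3, and is not counted among the members. It was 10.21, 10.28, 10.39, 10.25 and 10.26 in proliferating and 10.61, 10.73, 11.03, 10.61 and 10.59 in senescent cells, a difference of 0.44 (SE 0.08, limma's adjusted p = 0.0015) without overlap between the groups.

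Promoter sequence was read for 7 of the 10 genes from the RefSeq promoter table (GRCh38.p14), taking the 250 bases before the first start listed for a gene. The sequences of SYNE2 and SUN2, which fell, and of SYNE1, which rose, are shown because these genes give the contrasts above. Capitals mark matches, on either strand, to 3 kinds of short sequence known from promoters of cell cycle genes. These were E2F words (TTTCCCGC, TTTCGCGC, TTTGCCGC or TTTGGCGC), the cell cycle homology region (TTTGAA, or TTCAAA on the other strand) and the CCAAT box (CCAAT, or ATTGG on the other strand). No search word is contained in another.
SYNE2, chr14:63852754-63853003, plus strand: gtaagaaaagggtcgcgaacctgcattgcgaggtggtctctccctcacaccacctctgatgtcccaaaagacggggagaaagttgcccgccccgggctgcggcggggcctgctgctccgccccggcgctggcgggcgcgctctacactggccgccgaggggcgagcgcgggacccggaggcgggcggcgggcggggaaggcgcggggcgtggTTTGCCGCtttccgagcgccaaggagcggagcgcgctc
SUN2, chr22:38755999-38756248, minus strand: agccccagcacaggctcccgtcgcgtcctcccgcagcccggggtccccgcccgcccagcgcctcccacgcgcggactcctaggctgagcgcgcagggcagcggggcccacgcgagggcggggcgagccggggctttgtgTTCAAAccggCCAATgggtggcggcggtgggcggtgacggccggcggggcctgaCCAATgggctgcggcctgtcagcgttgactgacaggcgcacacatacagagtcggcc
SYNE1, chr6:152637363-152637612, minus strand: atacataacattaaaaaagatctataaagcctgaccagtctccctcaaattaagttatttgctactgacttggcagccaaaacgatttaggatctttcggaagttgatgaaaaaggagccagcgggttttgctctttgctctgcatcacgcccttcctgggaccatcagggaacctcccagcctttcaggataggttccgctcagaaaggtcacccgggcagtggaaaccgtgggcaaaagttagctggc
SYNE2 held 1 E2F word (TTTGCCGC, beginning 38 bases before the start), and 2.79% of 27305 promoter windows of the same length held at least 1 of the 4 words. SUN2 held 1 cell cycle homology word beginning 111 bases before the start and 2 CCAAT boxes at 101 and 57 bases, and 13.6% and 33.0% of windows held such matches. SYNE1, SYNE3, TOR1AIP1, TOR1AIP2 and NRM held none of these words in this window. A match describes letters only, and other starts of the same genes were not searched.

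TOR1A and TOR1B encode torsin-1A and torsin-1B, close relatives among the lumenal ATPases and neighbours in the RefSeq order of protein-coding genes, and both rose. TOR1B was measured by 209593_s_at, a probe set whose suffix marks probes shared between transcripts. Such a suffix is on 5 of the 34 member probe sets, also on SYNE2 202761_s_at, TOR1A 202348_s_at and TOR1AIP1 216100_s_at and 212409_s_at. The TOR1B values were 10.38, 10.17, 10.15, 10.39 and 10.50 in proliferating and 11.75, 11.67, 11.68, 11.69 and 11.40 in senescent cells. The groups were well separated, with senescent array 5 the lowest of its group. TOR1B rose by 1.32 (SE 0.09, limma's adjusted p = 6.7e-07), which is 2.50-fold.

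TOR1A rose less. On 202349_at the values were 11.66, 11.68, 11.54, 11.64 and 11.80 against 12.10, 12.01, 11.98, 12.13 and 11.84, and on 202348_s_at they were 9.88, 9.89, 9.79, 10.01 and 10.20 against 10.78, 10.78, 10.67, 10.59 and 10.62. Neither probe set showed overlap between the groups. The differences were 0.35 (SE 0.07, limma's adjusted p = 0.0012) and 0.73 (SE 0.08, adjusted p = 2.5e-05), and the second exceeded the first by 0.38 (exact permutation, adjusted p = 0.019). The remaining probe set, 1554849_at, lay below the 60th percentile on all arrays (2.63 to 3.55) and was called at 0.36 (SE 0.11, limma's adjusted p = 0.024). That call was lost with the ACTB covariate, at a similar difference (0.33, adjusted p = 0.19), and without proliferating array 5 (0.33, adjusted p = 0.055). Between the genes' highest-mean probe sets, the change of TOR1A was smaller than that of TOR1B by 0.97 (exact permutation p = 0.00794, adjusted p = 0.00794). That gap was 0.84 with the mean of the tested probe sets of each gene, which for TOR1A include 1554849_at, near background.

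**Figure D3:**
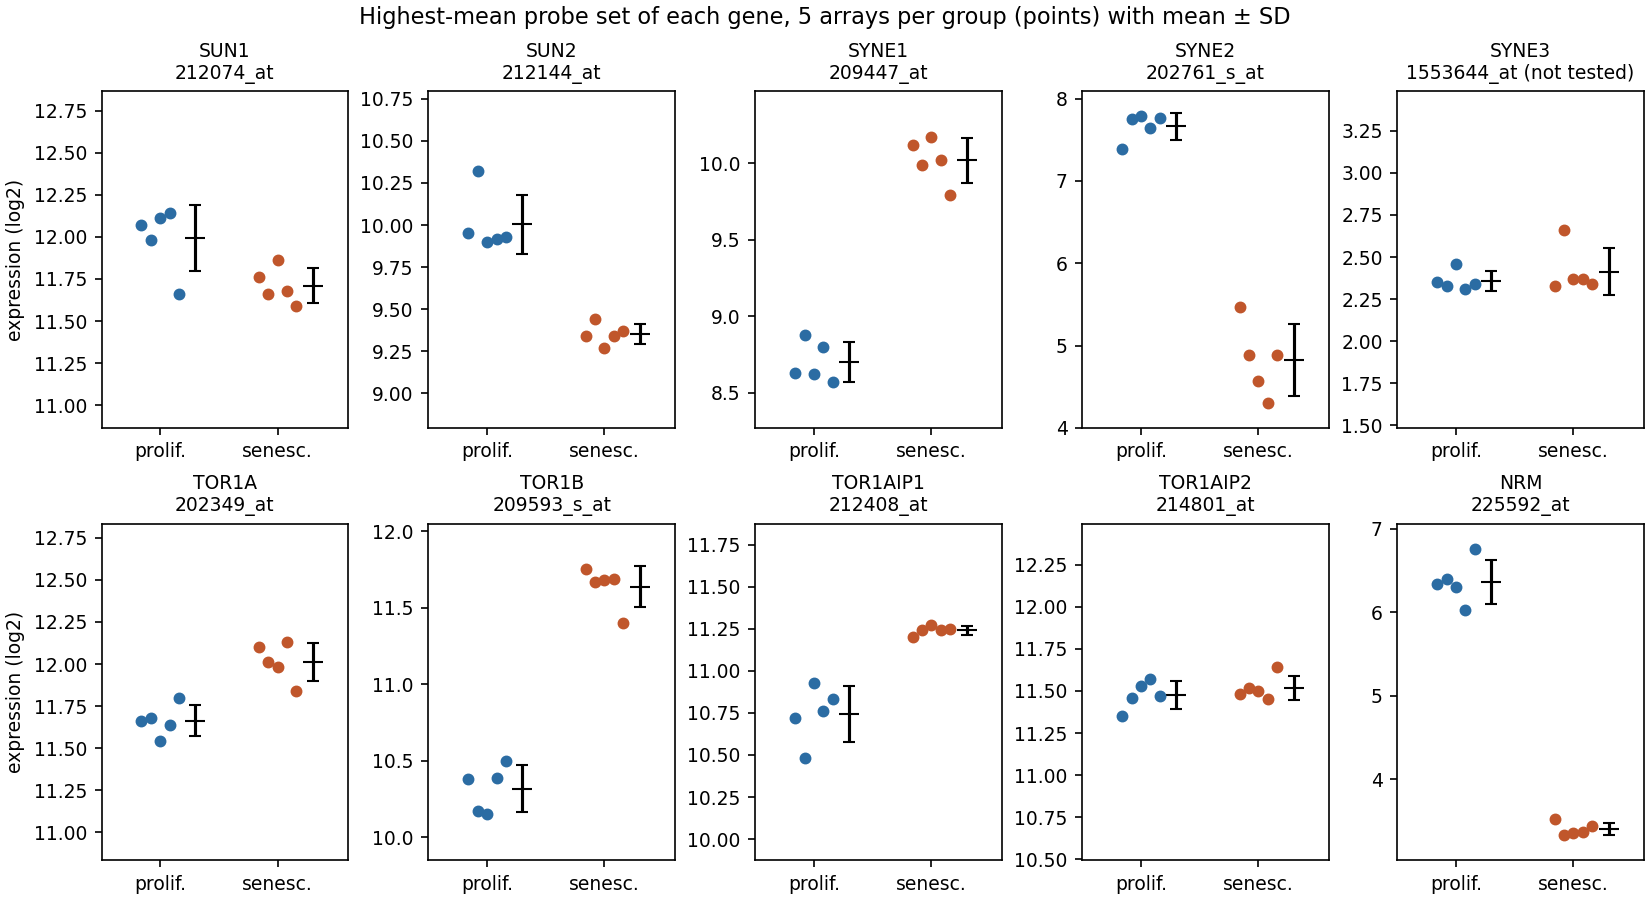
Expression (log2, vertical axes, which span different ranges) of the highest-mean probe set of each of the 10 genes on 5 proliferating (blue) and 5 senescent (orange) arrays, with mean ± SD beside the points. SUN2, SYNE2 and NRM are lower and SYNE1, TOR1A, TOR1B and TOR1AIP1 higher on every senescent array, SUN1 overlaps, and neither the untested SYNE3 nor the TOR1AIP2 probe set separates the groups.

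TOR1AIP1 encodes LAP1, the inner membrane activator of torsins, which also binds lamins. On 212408_at the values were 10.72, 10.48, 10.93, 10.76 and 10.83 in proliferating and 11.20, 11.24, 11.27, 11.24 and 11.25 in senescent cells. The senescent arrays were higher without overlap and lay close together (SD 0.03, against 0.17 in proliferating cells). Of its 5 probe sets 3 rose, by 0.49 (SE 0.08, limma's adjusted p = 0.00029) on this probe set, by 0.54 (SE 0.10, adjusted p = 0.0014) on 216100_s_at and by 0.53 (SE 0.08, adjusted p = 0.00041) on 212409_s_at. With the ACTB covariate 212408_at stood at 0.33 and 212409_s_at at 0.34. On 240310_at the difference of 0.20 (95% interval -0.25 to 0.64) was not called, and without senescent array 4, the lowest at 5.80, it was 0.38 (adjusted p = 0.030). The last, 1560724_at, did not pass the filter (2.50 to 2.54 and 2.52 to 3.30). The changes of the other tested probe sets could not be told apart from that of 212408_at, differing by 0.05, 0.03 and -0.29 (exact permutation, adjusted p of 0.29 to 0.77).

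TOR1AIP2 encodes LULL1, the torsin activator of the endoplasmic reticulum, and the same locus is known for a further, interferon-responsive product. It neighbours TOR1AIP1 in the RefSeq gene order. Its 8 probe sets, all tested, did not move together. On 225880_at the values were 10.28, 10.12, 10.27, 10.21 and 10.10 in proliferating and 11.24, 11.12, 11.08, 11.14 and 11.23 in senescent cells. On 214801_at, its highest-mean probe set, they were 11.35, 11.46, 11.53, 11.57 and 11.47 against 11.48, 11.52, 11.50, 11.45 and 11.64. The first separates the groups and the second does not.

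Of the 8 probe sets 5 rose, all without overlap between the groups. These were 230321_at by 1.02 (SE 0.14), 225880_at by 0.97 (SE 0.05), 235453_at by 0.95 (SE 0.07), 240700_at by 0.84 (SE 0.06) and 230241_at by 0.54 (SE 0.10), with limma's adjusted p at most 0.0011. The other 3 were not called: 214801_at differed by 0.04 (95% interval -0.08 to 0.16), 1569676_at by 0.13 (-0.27 to 0.52) and 231719_at by 0.20 (-0.02 to 0.42). On 231719_at limma's adjusted p was 0.11, and it passed with the ACTB covariate (0.39, adjusted p = 0.046). Relative to 214801_at the change was larger on the 4 probe sets that rose and had clear signal in both groups, by 0.49 to 0.93 (exact permutation, adjusted p of 0.019 for 3 and 0.035 for 230241_at; 230321_at was near background in proliferating cells), whereas 231719_at and 1569676_at differed from it by 0.16 and 0.09 (adjusted p = 0.15 and 0.68).

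**Figure D4:**
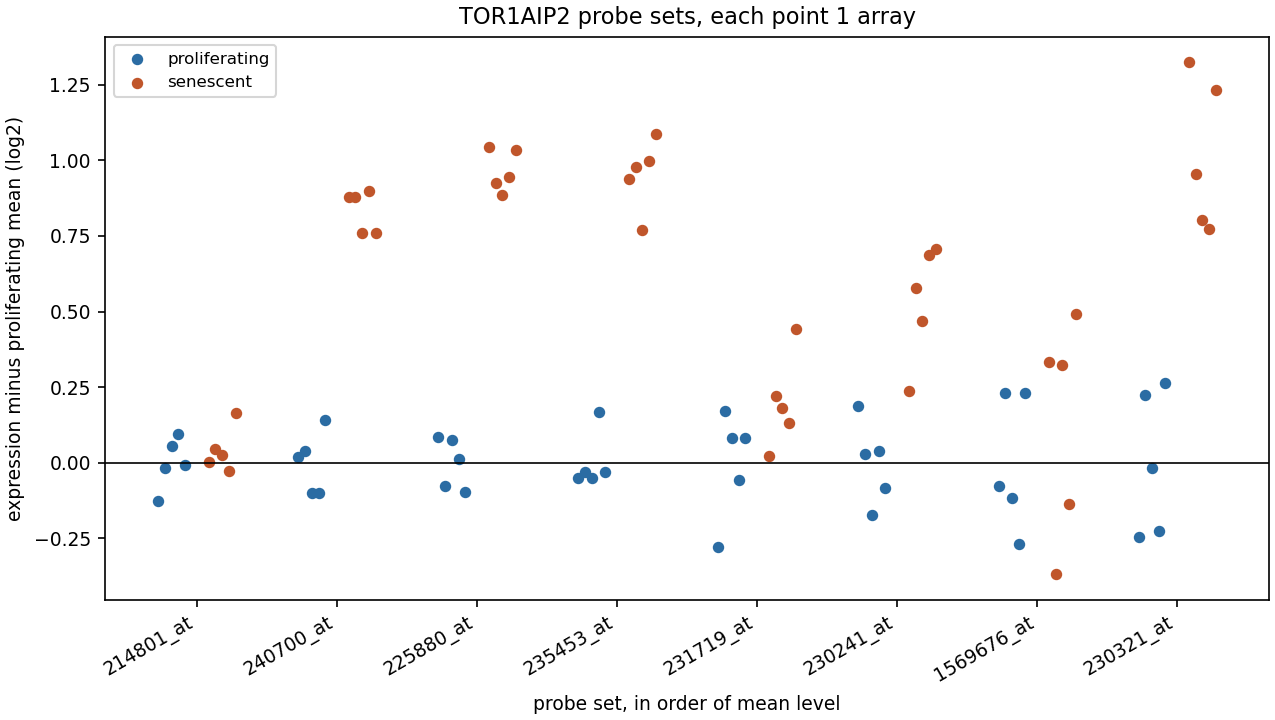
Expression of the 8 TOR1AIP2 probe sets (horizontal axis, in order of mean level) on each array, relative to the mean of the 5 proliferating arrays (vertical axis, log2). Senescent points (orange) lie clear of proliferating points (blue) on 5 probe sets, with mean differences of 0.54 to 1.02, and overlap them on 214801_at, 231719_at and 1569676_at.

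The choice of probe set therefore sets the order of the activator genes. Between highest-mean probe sets, the change of TOR1AIP1 exceeded that of TOR1AIP2 by 0.45 (exact permutation p = 0.00794, adjusted p = 0.00794). With the mean of each gene's tested probe sets it was smaller by 0.15 (difference of -0.15, adjusted p = 0.087). No direction between these 2 genes was shared by both measures.

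NRM, the inner membrane protein nurim, was measured by 1 probe set, 225592_at. Its values were 6.33, 6.39, 6.30, 6.02 and 6.76 in proliferating and 3.52, 3.33, 3.36, 3.37 and 3.44 in senescent cells. The groups were far apart, and all senescent values lay below the array's 60th percentile. NRM fell by 2.96 (SE 0.12, limma's adjusted p = 1.5e-08), which is 7.76-fold on this scale and depends on the background correction at the low end.

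Genes around the complex were taken from 3 lists and represented by their tested probe set with the highest mean, for which 60.2% of 12909 genes were called, 30.5% higher and 29.8% lower. Of 9 other SUN, KASH and torsin genes only 3 passed the filter, and 7, all but TOR3A and TOR4A, lay below the 60th percentile on every array. The torsin gene TOR4A rose by 0.39 (SE 0.08, limma's adjusted p = 0.0027) and TOR3A fell by 0.52 (SE 0.13, adjusted p = 0.0066), while IRAG2 differed by 0.03 (adjusted p = 0.44).

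Partners on the nuclear side mostly fell. Of 12 lamina and inner membrane genes 11 were tested, 8 fell and 2 rose, with a median of -0.49 against 0.04 over all genes. The largest falls were those of the lamin genes LMNB1 (-5.51, SE 0.15) and LMNB2 (-2.81, SE 0.17), the lamina-associated polypeptide gene TMPO (-4.01, SE 0.09) and the lamin B receptor gene LBR (-2.20, SE 0.04), each with limma's adjusted p at most 3.8e-07. These 4 falls, like those of SYNE2 and NRM, were known from earlier results of these data and are no independent support.

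Partners on the cytoplasmic side mostly rose. Of 15 genes whose products connect nesprins to the cytoskeleton or its motors, 14 were tested, 9 rose, 1 fell and 4 were not called, with a median of 0.35. KLC1, a light chain of kinesin-1, rose from 11.22 ± 0.11 to 12.33 ± 0.08 (SD, n = 5 each), a difference of 1.11 (SE 0.06, limma's adjusted p = 1.7e-07). DCTN1, the largest dynactin subunit, rose by 0.92 (SE 0.06, adjusted p = 9.0e-07) and the dynein chain gene DYNC1LI2 by 0.70 (SE 0.04, adjusted p = 3.3e-07). NDE1, a dynein regulator that also acts in mitosis, was the 1 gene that fell, from 8.90 ± 0.14 to 6.31 ± 0.28 (SD, n = 5 each; -2.59, SE 0.13, limma's adjusted p = 8.6e-08). Its paralogue NDEL1, chosen for comparison after its value was seen, rose by 0.54 (SE 0.05). For plectin (PLEC), the partner of nesprin-3, the probe set used was at 2.97 ± 0.01 and 3.00 ± 0.02 (SD, n = 5 each). That is too low for a difference to be read. Probe sets annotated with several symbols were not examined for the listed genes. A low value, as for PLEC, therefore does not show that the gene itself was low. Over the 3 lists 12 genes rose and 10 fell, and 11 and 9 did with the ACTB covariate.

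**Figure D5:**
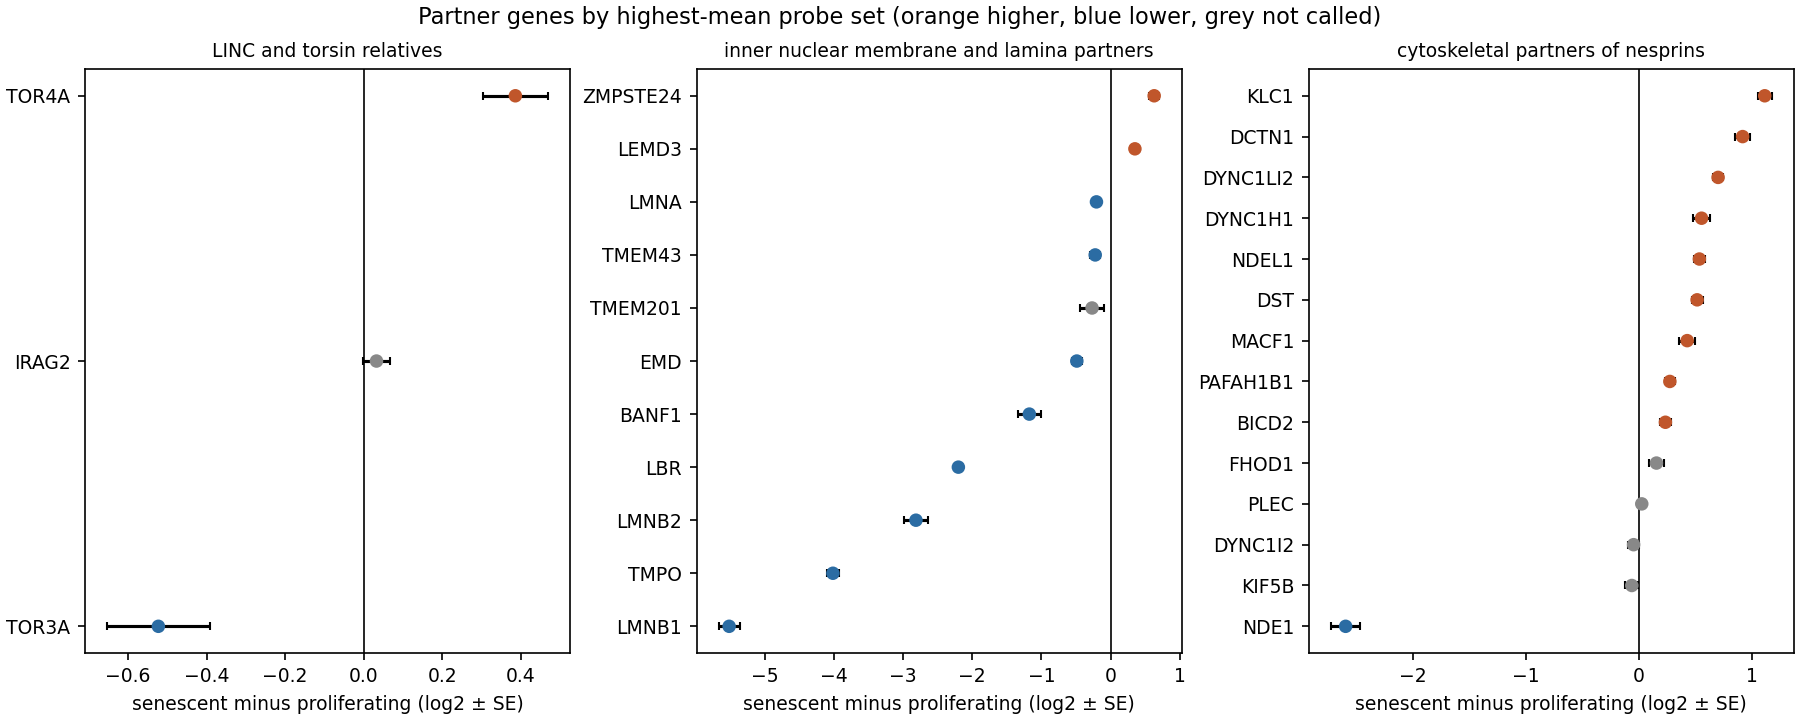
Difference between senescent and proliferating cells (horizontal axes, log2 ± SE, n = 5 arrays per group; the axes differ in range) for the tested genes of 3 lists around the LINC complex and torsins. Falls reach -5.51 for LMNB1 on the nuclear side, and 9 of 14 cytoskeletal partners lie above 0 as called rises, with NDE1 at -2.59.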

How the data were processed

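Total RNA from IMR90 cells was biotin-labelled and measured on 10 Affymetrix arrays per the labels' protocols. The authors deposited log2 values, 1 per probe set and array. Partek and GCRMA stand in the submitters' processing notes, with no version, role or order, and their settings were not stated in any source at hand. The log2 scale was read from the range of the values. Of 54675 probe sets, 62 controls were left out, 41091 had 1 symbol, 1801 several and 11721 none. The RefSeq gene table (GRCh38.p14) gave the current symbol, by gene identifier, for 41037 of the 41091, and 54 kept the platform's name.

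The 32732 probe sets that passed the filter entered limma 3.58.1 (lmFit, eBayes; R 4.3.3), with both groups as the only terms, a two-sided test and Benjamini-Hochberg adjustment over all of them at 0.05. Rose and fell mean past that threshold. Exact two-sided permutation tests over arrays compared changes within 22 pairs of probe sets of 1 gene and 4 pairs of related genes, each family adjusted by Benjamini-Hochberg. SYNE1 and SYNE2 were not tested against SYNE3, which had no tested probe set. All 34 probe sets are named, and of each partner list the called genes with the 4 largest differences. IRAG2, PLEC and NDEL1 were named after their values were seen. Alternatives were other filters, housekeeping centring, quantile normalisation, array weights, a trended robust fit, a replicate block, the ACTB control as covariate, 1 probe set per gene, no shared probe sets and leaving out each array. Members, lists and alternatives were chosen with earlier results of these data known. The tests were checked on simulated data. Figures used Python 3.11.15 and matplotlib 3.10.9.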

Additional observations from a re-analysis of the deposited data

Results flagged for a closer look

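Single arrays stood apart from the other 4 of their group, by Dixon's criterion for 5 samples (a gap over 0.71 of the range), in 9 of the 68 groups of member values examined, where chance flags about 1 in 20. For SUN2 proliferating array 2 was at 10.32 with the next at 9.95, and without it SUN2 fell by 0.57. For TOR1B senescent array 5 was at 11.40 with the next at 11.67, and without it the rise was 1.38. On the SYNE2 probe set 1558392_at senescent array 4 was at 4.22 with the next at 3.55, and without it the difference was -4.19. On the TOR1AIP2 probe set 235453_at proliferating array 4 was at 9.07 with the next at 8.87, and without it the difference was 1.00. The other 5 lay on probe sets near background: SYNE1 244144_at at 3.41 on senescent array 5 and 215350_at at 3.11 on proliferating array 1, SYNE3 1553644_at at 2.46 on proliferating array 3 and 2.66 on senescent array 2, and TOR1AIP1 1560724_at at 3.30 on senescent array 1. These arrays were not the same for the different genes, apart from senescent array 5 for TOR1B and SYNE1.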

How the results depend on the processing

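Of the 23 called member probe sets, 19 kept their call and direction under each alternative run on them, 4 lost the call under at least 1 (SUN1 212074_at and 230210_at, SYNE1 232027_at and TOR1A 1554849_at), and 0 reversed. With 1 probe set per gene 4 members were called higher and 4 lower, since fewer probe sets are tested. TOR1AIP2 was then not called, and SYNE3 had no tested probe set. Over all 12909 genes, 60.2% were called by their highest-mean probe set in the main fit, 30.5% higher and 29.8% lower. Leaving out each array in turn gave 14 to 16 member probe sets called higher and 6 to 8 lower. Of the partner genes, 12 were then called higher and 10 to 11 lower. The within-gene differences called were 9 to 10 against 12, and the related pairs were 4 each time. Of those 12 differences, 6 involve a probe set near background on every array of a group. Values that were not called changed sign as follows. SUN1 206487_at was at -0.026 with housekeeping centring, -0.0078 with quantile normalisation, -0.014 with array weights, -0.0136 with the ACTB covariate and -0.011 to 0.012 without single arrays. SUN1 214169_at was at 0.051 with array weights and -0.13 to 0.135 without single arrays. With the ACTB covariate SYNE1 215350_at was at -0.0245 and TOR1AIP1 240310_at at -0.033. The called pair TOR1AIP1 minus TOR1AIP2 turned to -0.15 with the mean of probe sets. Same-numbered arrays showed no clear common deviation (correlations of -0.06 to 0.09, 2 of 5 proliferating arrays closest to their own number). No pairing by number was therefore seen, but a weak one could be missed with 5 arrays a group. With a replicate block 16 member probe sets were called higher and 8 lower. Housekeeping centring moved the median of all probe sets by -0.03 and quantile normalisation by -0.02. Of the 27 housekeeping genes tested, 5 rose and 12 fell, so they are no stable reference. Members under the 60th percentile on all arrays (9 of 34) are limited by signal over background.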

Other observations

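Among 6669 genes with at least 2 tested probe sets, 253 (3.79%) had called probe sets of opposite direction. Of the 6 member genes with at least 2 tested probe sets, 0 did. The change differed in size in 12 of 22 comparisons of probe sets of the same gene by the exact permutation test, but 6 of these 12 involve a probe set near background in at least 1 group, where the size of a change is limited. Near background here means low on every array of a group. Of the 13 comparisons without such a probe set, 6 passed, in SYNE1, TOR1A and TOR1AIP2. The SYNE1 comparison rests on 244070_at, whose proliferating values (4.40 to 4.81) lay around the percentile used for low signal (4.64 to 4.77). The size of that SYNE1 difference is therefore limited as well. NDE1 and NDEL1, paralogous dynein regulators that also differ in direction here, were noticed after their values were seen, and the difference between them was not tested.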
